A study of Homo sapiens with 8 samples.

Results

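The ephrins and Eph receptors, the SLIT ligands and ROBO receptors, and the netrins with their receptors are represented here by 37 of the 19962 protein-coding genes examined for H3K27Ac, a histone mark of active enhancers and promoters, in 4 medulloblastoma (MB) cell lines. The list does not hold every member of these families, and *EFNB1*, for example, is not on it. The 37 genes comprised 13 ligands (5 ephrin-A, 2 ephrin-B, 3 SLIT and 3 netrin genes) and 24 receptors (9 EphA, 5 EphB, 4 ROBO and 6 netrin receptor genes), listed by family membership and not by any measured value. A stitched H3K27Ac region was in reach of a gene when it overlapped the gene body or lay within 50 kb of the start site of its canonical transcript in GENCODE 44 (GRCh38). By this rule the genes had 127 of the 26072 regions of MB002, 96 of 26317 in D425, 70 of 15286 in HD-MB03 and 86 of 20875 in UW228.

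These genes steer growing axons and migrating neurons. Ephrins are bound to the cell surface and act on Eph receptor tyrosine kinases of neighbouring cells, mostly by repulsion. SLIT proteins are secreted repellents read by ROBO receptors, and netrins are secreted cues that attract through DCC and neogenin or repel through UNC5 receptors. In the developing cerebellum, from which MB arises, these cues guide commissural and precerebellar neurons and granule cell precursors.

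MB002, D425 and HD-MB03 (HDMB03 in the labels) were labelled as Group 3 MB (G3-MB), and UW228 was labelled as SHH subtype and served in the study as a non-G3 control. For each line, 1 H3K27Ac library and its input were sequenced, and no treatment is named. There were no replicates, so no spread could be given, and UW228 against 3 lines could not reach an exact permutation p below 0.25. D425 and UW228 were grown with serum, and MB002 and HD-MB03 in a tumor stem cell medium. The table of UW228 was made separately from the other 3, so the subgroup and this difference cannot be told apart.

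The labels were set against marker lists. Of 7 Group 3 markers, 3 in MB002, 4 each in HD-MB03 and D425 and 0 in UW228 had a region in the top 5% of their line, *OTX2* among them in all 3 G3-MB lines. Of 8 SHH markers, 0 were in the top 5% in UW228, although 7 had a region in reach, against 3 in HD-MB03, 2 in D425 and 1 in MB002. Of 7 mesenchymal markers, 3 were in the top 5% in UW228 (*COL1A2*, *COL3A1* and *VIM*, each with a super-enhancer, SE), 2 in MB002 (*COL1A1* and *PDGFRB*, neither with a SE) and 0 in D425 and HD-MB03. *COL1A1* and *PDGFRB* ranked higher in MB002, at 1.82% and 4.65%, than in UW228, at 8.63% and 26.7%. The closest gene to the *COL1A1* region of MB002 was *PPP1R9B*, while in UW228, with 16 regions in reach against 3, it was *COL1A1* itself. For the *VIM* region of UW228 it was *TRDMT1*. The SHH markers were thus not among the strong regions of the line labelled as SHH subtype, and it is called UW228 throughout. Of 4 endothelial markers, *PECAM1* had a SE in UW228 and none was in the top 5% of the other lines.

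The promoters and the enhancer stretch below show the DNA at 1 start site for each of 5 gene groups and in the strongest region of *EFNB2*. For the EphA, EphB and ephrin-A genes, the SLIT and ROBO genes together, and the netrins and their receptors together, the promoter printed is that of the member whose start site lay under the highest ranked region, among those with an entry in the RefSeq promoter table (GRCh38.p14), which held 31 of the 37 genes. Capitals mark matches, on either strand, to TAATCC (core of OTX and CRX factors), CACGTG (the E-box of MYC), TGACTCA (AP-1) or CATTCC (core of TEAD factors). Over all 27305 promoters in the table, 6.39% held TAATCC, 7.43% CACGTG, 4.92% TGACTCA and 14% CATTCC, and a match is only a match of letters. Among the 31 promoters, 2 held TAATCC, 1 held CACGTG, 0 held TGACTCA and 3 held CATTCC. *EPHA10*, *EFNB3*, *NTN1*, *NTN3*, *UNC5B* and *UNC5D* are not among them.

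The start sites of *EPHA2*, *EFNA5* and *EPHB4* lay under a region in different sets of lines. The *EPHA2* promoter (chr1:16156020-16156319, minus strand) lay under a region in all 4 lines and held 1 TAATCC and 1 CATTCC. The *EFNA5* promoter (chr5:107670888-107671187, minus strand) lay under a region in the 3 G3-MB lines and not in UW228, had a GC content of 78% and held 0 matches. The *EPHB4* promoter (chr7:100827474-100827773, minus strand) lay under a region in UW228 alone, the region of rank 6363.
*EPHA2* promoter: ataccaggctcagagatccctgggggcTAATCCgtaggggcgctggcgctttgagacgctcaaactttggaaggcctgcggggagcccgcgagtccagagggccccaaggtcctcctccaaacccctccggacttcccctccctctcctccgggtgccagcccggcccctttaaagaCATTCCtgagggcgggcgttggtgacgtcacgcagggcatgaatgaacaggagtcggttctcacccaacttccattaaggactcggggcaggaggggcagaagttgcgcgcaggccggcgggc
*EFNA5* promoter: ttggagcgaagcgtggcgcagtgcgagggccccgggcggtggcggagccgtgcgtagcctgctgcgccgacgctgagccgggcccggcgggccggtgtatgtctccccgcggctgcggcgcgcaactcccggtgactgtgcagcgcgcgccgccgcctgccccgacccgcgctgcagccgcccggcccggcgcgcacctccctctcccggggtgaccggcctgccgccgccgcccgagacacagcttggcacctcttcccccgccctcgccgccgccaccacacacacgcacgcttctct
*EPHB4* promoter: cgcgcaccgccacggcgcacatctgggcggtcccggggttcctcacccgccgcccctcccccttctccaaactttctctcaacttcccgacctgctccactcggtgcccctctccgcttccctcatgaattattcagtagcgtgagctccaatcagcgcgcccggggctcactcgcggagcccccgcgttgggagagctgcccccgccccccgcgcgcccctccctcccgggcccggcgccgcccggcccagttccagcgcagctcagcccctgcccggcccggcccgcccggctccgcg

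The remaining promoters stand for the SLIT and ROBO genes and for the netrins with their receptors, and were marked in some G3-MB lines. The *ROBO4* promoter (chr11:124897816-124898115, minus strand) lay under a region in MB002 alone, and the *UNC5C* promoter (chr4:95548924-95549223, minus strand) under a region in MB002 and HD-MB03. *UNC5C* was taken, after its values were seen, because *NTN3*, whose start site lay under higher ranked regions in this joint group of netrins and receptors, has no entry. The start sites of *EFNB2* and *EFNB3* were not under a region in any line.
*ROBO4* promoter: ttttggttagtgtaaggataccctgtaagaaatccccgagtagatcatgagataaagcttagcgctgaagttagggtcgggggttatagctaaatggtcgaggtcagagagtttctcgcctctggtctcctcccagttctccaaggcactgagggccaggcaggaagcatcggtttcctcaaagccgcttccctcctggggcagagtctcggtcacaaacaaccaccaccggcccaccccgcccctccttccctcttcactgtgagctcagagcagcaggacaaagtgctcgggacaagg
*UNC5C* promoter: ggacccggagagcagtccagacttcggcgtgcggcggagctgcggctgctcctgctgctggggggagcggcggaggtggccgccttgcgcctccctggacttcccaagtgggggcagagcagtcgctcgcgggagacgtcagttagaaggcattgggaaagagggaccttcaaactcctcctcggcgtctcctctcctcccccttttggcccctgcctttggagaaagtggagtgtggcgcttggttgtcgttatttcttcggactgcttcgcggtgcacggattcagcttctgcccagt

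A stretch of 300 bases, the one with the most motif matches, is given for the strongest region of *EFNB2*, chosen after its values were seen. It (chr13:106503369-106503668, plus strand, GRCh38) lies in the SE of UW228, which no region of the other lines overlapped.
*EFNB2* in UW228: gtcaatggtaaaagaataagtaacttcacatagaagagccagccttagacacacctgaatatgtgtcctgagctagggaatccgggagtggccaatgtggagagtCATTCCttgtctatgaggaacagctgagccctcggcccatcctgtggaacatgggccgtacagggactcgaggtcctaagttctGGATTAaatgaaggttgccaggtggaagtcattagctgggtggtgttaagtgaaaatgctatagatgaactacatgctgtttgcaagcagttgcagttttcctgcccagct

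To ask which ligands and receptors were strong in which line, regions were ranked within each line by H3K27Ac signal minus input, where rank 1 is the highest, and each gene was described by its best rank. Where another measure or window is named below, the best region of each gene was chosen again under it and can be a different one. A SE is a region called as such by the authors, and all other regions are typical enhancers (TEs). A gene was called strong when its best region was in the top 5% of the regions of the line, which ended at rank 1303 in MB002, rank 1315 in D425, rank 764 in HD-MB03 and rank 1043 in UW228. Signal is the depth-normalised read density per bp summed over the region. Signals of different libraries are given side by side, and lines, which differ in their number of regions, were compared by the rank as a percentage of the regions of the line and not by the rank itself.

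Strong regions lay at *EFNA4*, *EFNA5* and *NTN3* in all 3 G3-MB lines, at *EFNA1*, *EFNA2* and *EFNA3* in D425 alone, at *EPHB2* and *EPHA6* in MB002 alone, and at *EFNB2* in UW228 alone. *EPHA2* was strong in D425, UW228 and MB002. With a start-site window of 100 kb, *EFNA1* and *EFNA3* were strong in HD-MB03 too (both at 1.31%) and *EFNA3* in MB002 (0.951%), and *EFNA4* was then strong in UW228 (3.17%). In MB002, 6 of the 37 genes were strong (*EFNA5*, *NTN3*, *EFNA4*, *EPHB2*, *EPHA2* and *EPHA6*), where 10.8% of all genes were. In D425 there were 7 (*NTN3*, *EPHA2*, *EFNA1*, *EFNA3*, *EFNA4*, *EFNA5* and *EFNA2*), with a background of 12.3%. HD-MB03 had 3 (*NTN3*, *EFNA5* and *EFNA4*), with a background of 8.42%, and UW228 had 2 (*EPHA2* and *EFNB2*), with a background of 6.55%. Ligands were 3 of the 6 strong genes of MB002, 6 of 7 in D425, 3 of 3 in HD-MB03 and 1 of 2 in UW228.

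**Figure D1:**
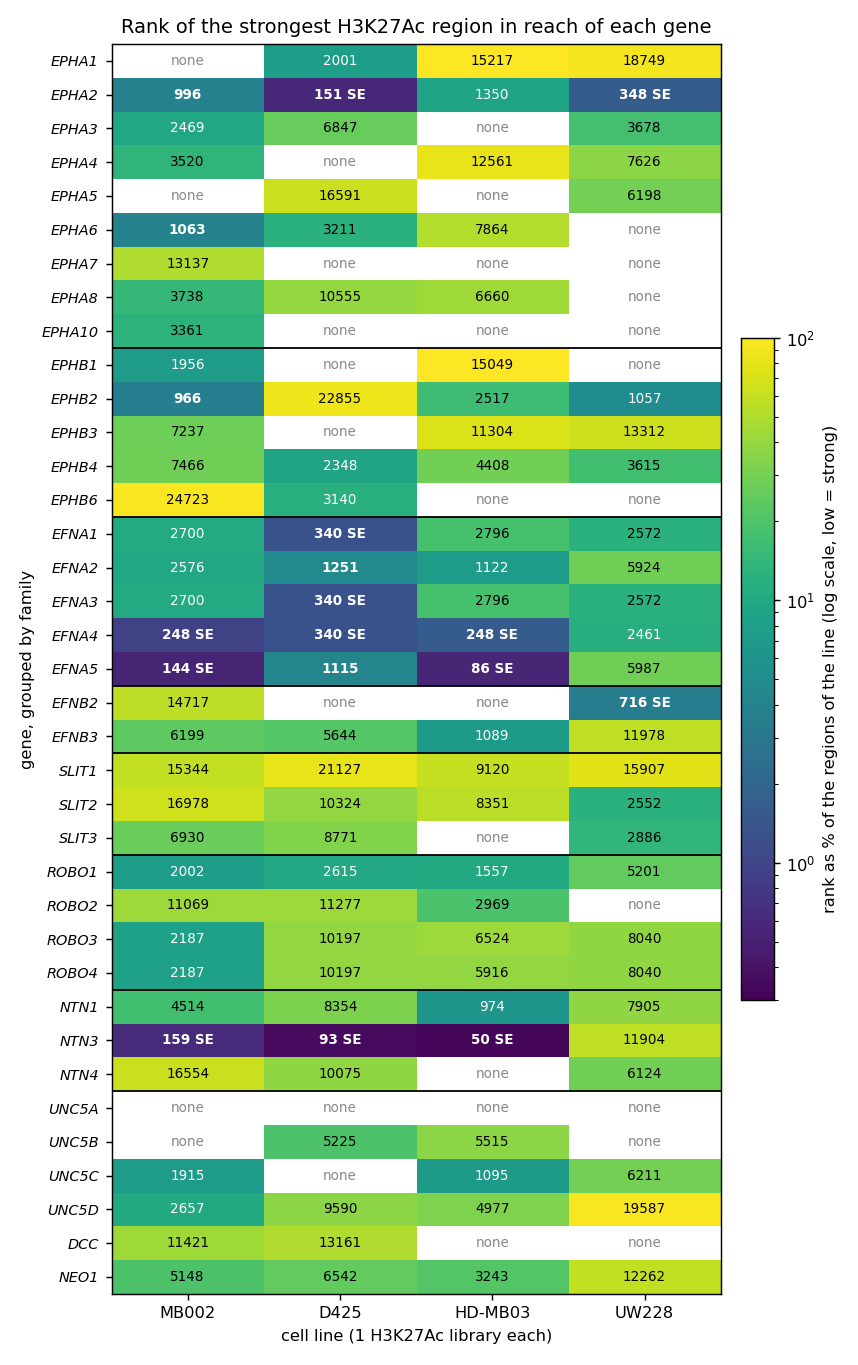
Rank of the strongest H3K27Ac region in reach of each of the 37 genes (rows, grouped by family) in each cell line (columns, 1 library each). The numbers are ranks, SE marks a super-enhancer, bold marks the top 5%, and the colour gives the rank as a percentage of the regions of the line on a log scale, where dark is strong. *EFNA4*, *EFNA5* and *NTN3* are bold in the 3 G3-MB columns and not in UW228, and *EFNB2* is bold in UW228 alone.

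A SE was in reach of 3 genes in MB002 (*EFNA4*, *EFNA5* and *NTN3*), against 3.33% of all genes, and of 5 in D425 (*EPHA2*, *EFNA1*, *EFNA3*, *EFNA4* and *NTN3*), against 4.31%. In HD-MB03 a SE was in reach of 3 genes (*EFNA4*, *EFNA5* and *NTN3*), against 3.09%, and in UW228 of 2 (*EPHA2* and *EFNB2*), against 4.95%. Counted once per region, there were 11 SEs over the 4 lines, and a gene of these families had the closest start site to the centre in 6 of them. The same was so for 12 of the 19 regions in the top 5%. In the other 7 the closest gene was *TBC1D24*, *ZBTB7B*, *MIDN* or *ARL6*.

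*EFNA4*, *EFNA5* and *NTN3* were strong in at least 2 G3-MB lines and not in UW228, which makes 3 of 37 genes against 6.23% of all genes. *EFNB2* was strong in UW228 and in none of the G3-MB lines, which makes 1 of 37 against 3.71%. As shares of the 37 genes, those with a SE were 8.11% for MB002, 13.5% for D425, 8.11% for HD-MB03 and 5.41% for UW228, and those strong were 16.2%, 18.9%, 8.11% and 5.41% in that order. The SE shares of the 3 G3-MB lines were thus above their backgrounds, by counts of 3 to 5 genes, of which *EFNA1*, *EFNA3* and *EFNA4* share 1 SE in D425. This excess ended in D425 and HD-MB03 by mean signal per bp, with 1 gene against 2.82% and 0 against 1.49%, and without the regions over any start site, with 0 genes in both lines against 1.41% and 0.646%. The shares of strong genes were above the background in MB002 and D425, near it in HD-MB03 and below it in UW228, where 1 gene is 2.7% of the 37. In MB002 the excess of strong genes ended with division by relative input (4 genes against 10.7%). In D425 it ended by mean signal per bp (4 genes against 10.6%), with a window of 100 kb (7 genes against 18.3%) and without the regions over any start site (2 genes against 7.95%). Without those regions the strong genes were *EPHB1*, *EPHB2* and *EFNA5* in MB002, *EFNA2* and *EFNA5* in D425, *EFNA5* and *NTN1* in HD-MB03, and *EPHB2* and *EFNB2* in UW228. In all, 10 of 37 genes were strong in at least 1 line, against 25.7% of all genes. Split by length, they were 3 of the 19 genes of at least 100 kb, against 32.9% of all genes of that length, and 7 of the 18 shorter genes, against 24.1%. The 5 genes with a SE in D425 were all among the shorter ones, where 4.05% of all genes had one, and 0 of the 19 longer genes had one, against 5.47%. The members nearest the limit were *EFNA2* in D425 at 4.75% inside it and *EPHB2* in UW228 at 5.06% outside it.

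**Figure D2:**
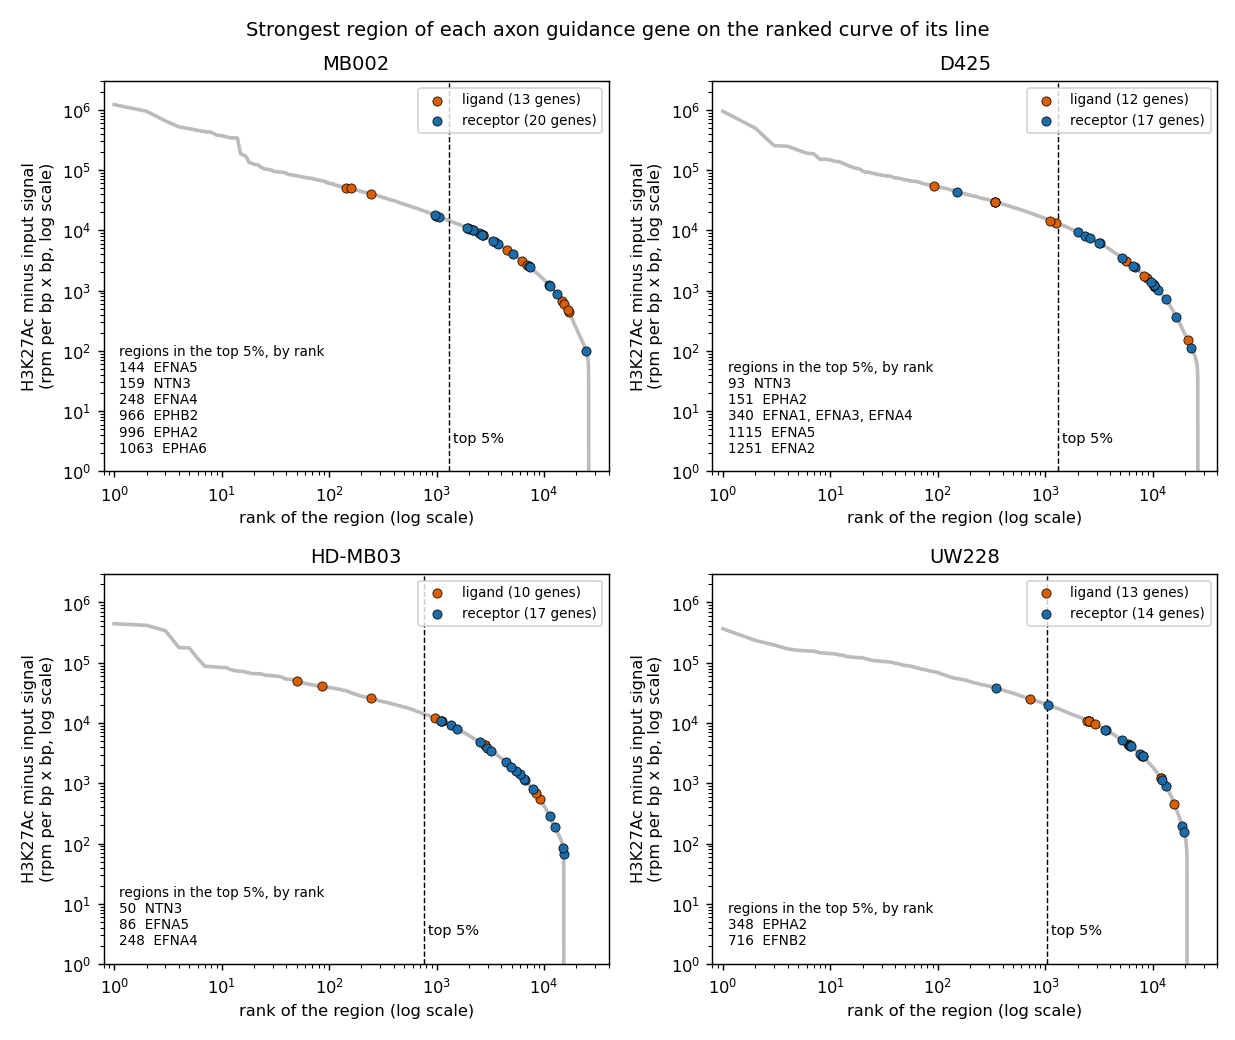
Signal (H3K27Ac minus input) against rank for all regions of each line (grey, both axes on log scales), with the strongest region of each ligand (orange) and receptor (blue) that had one. The dashed line ends the top 5%, which holds 6 genes in MB002, 7 in D425 (3 of which share 1 point), 3 in HD-MB03 and 2 in UW228, listed with their ranks.

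*EFNA5*, which encodes an ephrin known for repelling retinal axons in the midbrain, was strong in all 3 G3-MB lines. The gene is transcribed from the minus strand and spans 294.0 kb of chromosome 5 (107376894 to 107670937). Its best region was a SE of 95.5 kb and 31 peaks inside intron 1 in MB002 (rank 144, 0.552%, signal 50703) and a SE of 33.7 kb over the start site in HD-MB03 (rank 86, 0.563%, signal 40436.5). In D425 its best region was a TE of 20.8 kb over the start site (rank 1115, 4.24%, signal 14533).

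Each G3-MB line carried a pair of strong regions at *EFNA5*, over the start site and further into intron 1. In MB002 the start-site region was a TE at rank 426, or 1.63% of the regions. In D425 the intron 1 region spanned 80.9 kb at rank 1165 (4.43%), and in HD-MB03 it spanned 33.4 kb at rank 605 (3.96%). In UW228, by contrast, 4 regions lay in the gene, the nearest of them 127.3 kb from the start site. The best of these was 4.94 kb long, 200.6 kb from the start site, at rank 5987 (28.7%) with a signal of 4401. *EFNA5* was the only protein-coding gene in reach of all these regions, and its regions covered 176.6 kb in MB002, 105.7 kb in D425, 100.0 kb in HD-MB03 and 18.3 kb in UW228. By mean signal per bp in place of summed signal, its best regions moved to 18.9% in MB002, 16.3% for D425 and 10.8% for HD-MB03, outside the top 5%. UW228 stood at 18.3% by that measure, above MB002, so that the contrast between the G3-MB lines and UW228 was not found with it.

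**Figure D3:**
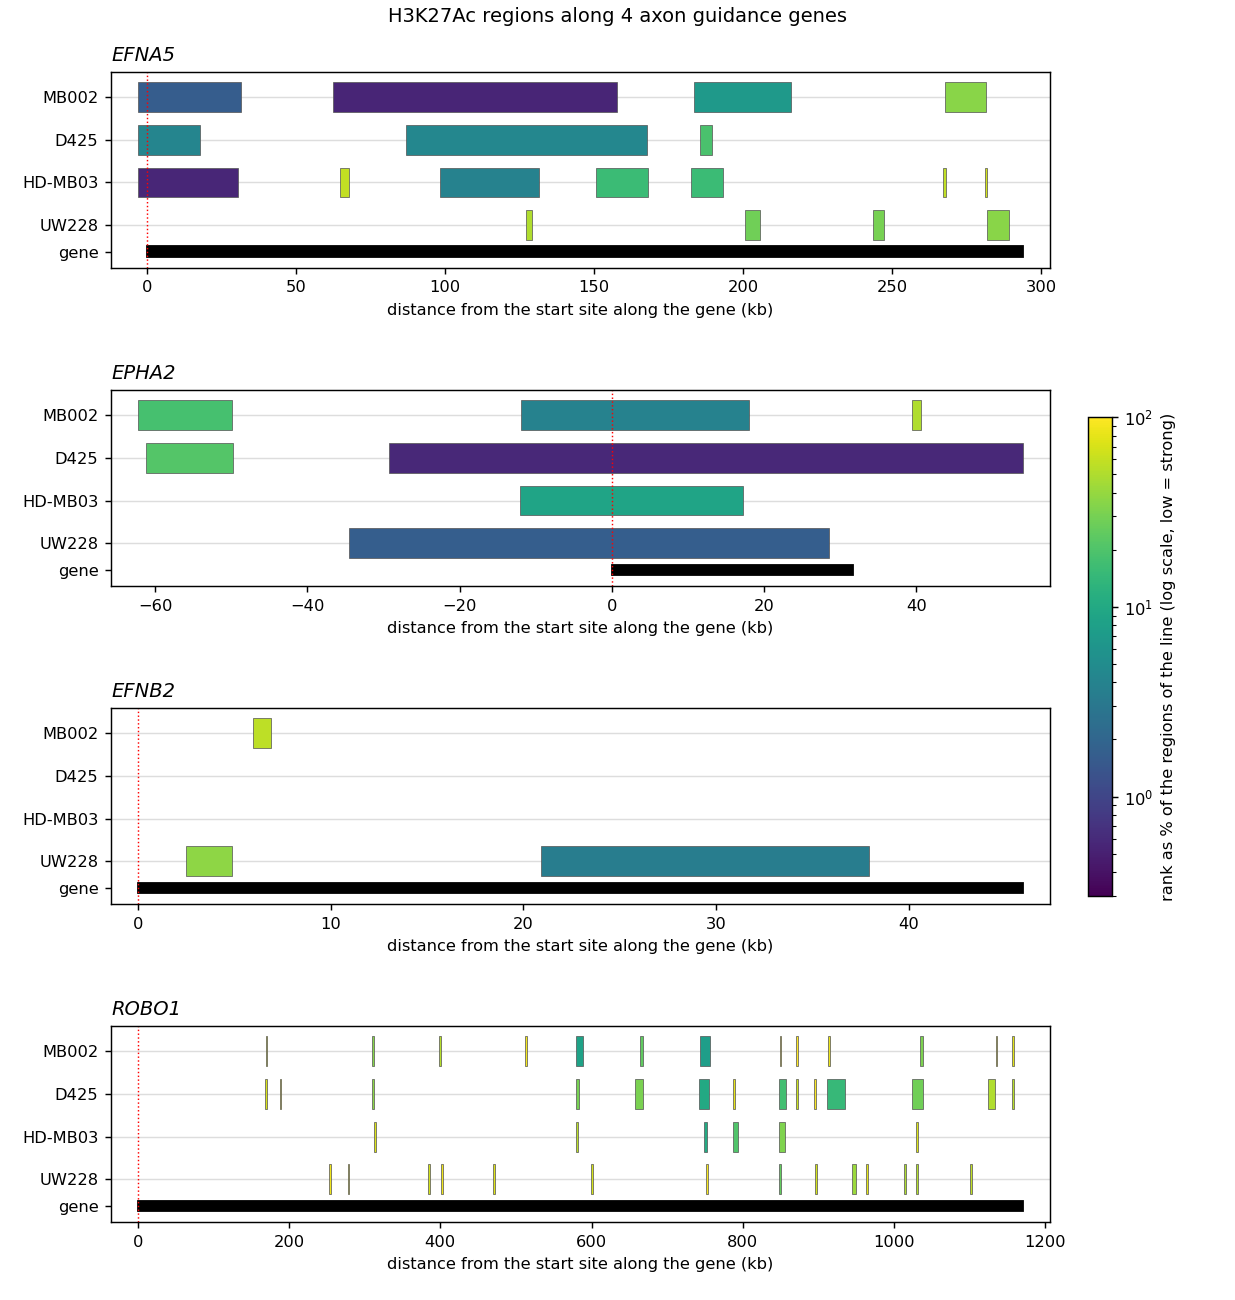
H3K27Ac regions along *EFNA5*, *EPHA2*, *EFNB2* and *ROBO1* in the 4 lines, with the distance from the start site along the gene in kb on the x axis. Each box is a region at its true length (very short ones are drawn at a minimum width), coloured by rank as a percentage of the regions of the line on a log scale, the black bar is the gene and the dotted red line its start site. At *EFNA5* the start site lies under a region in the 3 G3-MB lines only, at *EPHA2* in all 4, and at *EFNB2* and *ROBO1* in none.

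*EFNA1*, *EFNA3* and *EFNA4*, a cluster of ephrin-A ligand genes on chromosome 1, shared their strongest region in D425. This was a SE of 46.7 kb and 14 peaks at rank 340 (1.29%, signal 29939), which covered the start site of *EFNA1*, began 6.1 kb downstream of that of *EFNA3* and lay 21.1 kb downstream of that of *EFNA4*. In MB002 and HD-MB03 the SE of *EFNA4* was another one, 45.6 kb and 45.8 kb upstream, at rank 248 in both lines (0.951% and 1.62%, signals 40098 and 25879). It had 12 protein-coding genes in reach, and its closest gene was *ZBTB7B*. UW228 had a TE at this place, 45.0 kb upstream, at rank 2461 (11.8%).

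In D425, unlike the other lines, the strong region of this cluster lay among the ephrin genes themselves. Outside D425 the best region of *EFNA1* and *EFNA3* was one that the 2 genes shared, at 10.4% of the regions in MB002, 18.3% in HD-MB03 and 12.3% in UW228. The input of UW228 over the upstream region was low, at 0.270 of the median of its regions. With the signal divided by this relative input, *EFNA4* stood at 1.66% in UW228, so that it was strong there too. With a start-site window of 25 kb, *EFNA4* stood at 10.4% in MB002 and 18.3% in HD-MB03. *EFNA1* and *EFNA3* left the top 5% of D425 by mean signal per bp, at 34.9%, and ranked lower there than in UW228, at 24.6%. *EFNA4* then stood at 1.73% in D425, 6.65% in MB002, 9.32% in HD-MB03 and 45.1% in UW228, strong in D425 alone.

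*EFNA2*, an ephrin-A ligand on chromosome 19 from 1285873 to 1301431, was strong in D425 alone. MB002 and D425 had 8 regions each, HD-MB03 had 6 and UW228 had 1. The best ranks were 2576 (9.88%) for MB002, 1251 (4.75%) for D425, 1122 (7.34%) for HD-MB03 and 5924 (28.4%) for UW228. The D425 region was a single peak of 5.12 kb, 30.9 kb upstream, with *MIDN* as its closest gene. *EFNA2* left the top 5% of D425 without input subtraction, at 6.11%, and with division by relative input, at 6.13%. It also left it with a window of 25 kb, at 7.02%, and with gene bodies alone or the closest gene only, at 7.68%. With that division it entered the top 5% of UW228, at 2.08%, where its region then counted as a SE. The relative input of its UW228 region was low, at 0.123, so this call rests on division by a small value. By mean signal per bp it was strong in every G3-MB line, at 0.323% for D425, 1.6% for MB002 and 2.68% for HD-MB03, and stood at 79.4% in UW228.

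*EFNB2*, a transmembrane ephrin known for its part in artery and vein identity and in forward and reverse signalling, was the only ligand strong in UW228. The gene is on chromosome 13 (106489745 to 106535662, minus strand). Its SE in UW228 was 17.0 kb long with 5 peaks, began 20.9 kb from the start site and covered exon 2 (rank 716 of 753 SEs, signal 25396). A TE of 2.36 kb lay in intron 1 at rank 7748. MB002 had 1 region in intron 1 at rank 14717 (56.4%) and a signal of 667, whereas D425 and HD-MB03 had none. Its relative input in UW228 was 1.17. *EFNB2* lost the call among the top 2% and the top 500 regions, and stood at 6.34% by mean signal per bp. With division by relative input, *EFNA2* and *EFNA4* were the genes with a SE in UW228, and *EFNB2* and *EPHA2* had none there.

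*EFNB3*, an ephrin-B ligand of the midline of the nervous system, was strong in no line, and its best region stood at 7.12% in HD-MB03, 21.4% for D425, 23.8% for MB002 and 57.4% for UW228. It entered the top 5% of HD-MB03 by mean signal per bp. These regions were shared with neighbours, and the closest gene was *ATP1B2* in MB002 and D425, and *DNAH2* in the other lines.

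*NTN3*, a small secreted netrin gene of 2.8 kb on chromosome 16 from 2471297 to 2474145, lay entirely under a SE in the 3 G3-MB lines. The SE was 17.6 kb long in MB002 (rank 159, 0.61%, signal 49854), 30.6 kb in D425 (rank 93, 0.353%, signal 55257) and 36.4 kb in HD-MB03 (rank 50, 0.327%, signal 49706). Each was the highest or next highest rank of the 37 genes in its line. By mean signal per bp *NTN3* stayed in the top 5% of MB002 (0.905%) and D425 (2.93%) and left it in HD-MB03 (8.75%). In UW228 the only region in reach lay 43.7 kb downstream at rank 11904 (57.0%) with a signal of 1225. The SE had 9 protein-coding genes in reach in MB002 and 10 in D425 and HD-MB03, and the start site closest to its centre was that of *TBC1D24*. These data do not assign the mark to *NTN3* rather than to its neighbours.

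*NTN1*, the main netrin of the floor plate and a midline attractant, had 7 regions in HD-MB03, 4 in D425, 3 in UW228 and 2 in MB002. Its best rank was 974 (6.37%) in HD-MB03, in intron 5 over 21.0 kb, just outside the top 5%. The best regions of the other lines stood at 17.3% (MB002), 31.7% (D425) and 37.9% (UW228). *NTN4*, a netrin of basement membranes, was best in UW228 at rank 6124 (29.3%), 5.2 kb upstream, and had no region in HD-MB03.

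The SLIT genes, secreted repellents of the midline, were strong in no line, although *SLIT3* had a SE in UW228 by mean signal per bp. *SLIT1* ranked no higher than 58.9% in any line, and stood between that and 80.3%. *SLIT2* and *SLIT3* had their best ranks in UW228, at rank 2552 (12.2%) and rank 2886 (13.8%). For *SLIT2* this region lay 48.3 kb upstream over 11.7 kb, and the best regions stood at 65.1%, 39.2% and 54.6% in MB002, D425 and HD-MB03. For *SLIT3* it lay over exons 10 to 11, with 26.6% in MB002, 33.3% in D425 and no region in HD-MB03. *SLIT2* had 7 regions in reach in UW228, 4 each in MB002 and D425, and 2 in HD-MB03.

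*EPHA2*, a receptor tyrosine kinase for ephrin-A ligands that is also found in epithelia and in glioma, was the highest ranked receptor in D425 and UW228. The gene is on chromosome 1 (16124337 to 16156069, minus strand). Its start site lay under a region in all 4 lines, at rank 151 in D425 (0.574%, signal 43425), rank 348 in UW228 (1.67%, signal 38203), rank 996 in MB002 (3.82%, signal 17597) and rank 1350 in HD-MB03 (8.83%, signal 9143). In D425 and UW228 these were SEs of 83.3 kb with 22 peaks and 63.0 kb with 15 peaks, whereas in MB002 and HD-MB03 they were TEs of 30.0 kb and 29.3 kb with 5 peaks each. HD-MB03 alone was outside the top 5%.

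The 2 lines with a SE at *EPHA2* were those grown with serum and not in the tumor stem cell medium, and the part of the culture medium in this was not tested. The relative input was 1.97 in UW228 and 1.44 in MB002. With division by it, *EPHA2* left the top 5% of both lines, at 5.84% and 5.94%. The strong rank rested on the length of the region, since by mean signal per bp *EPHA2* stood at 49.1% in D425 and 55.1% in UW228. MB002 then ranked above both, at 28.9%, but through another of its 3 regions and not the one over the start site (0.5864 per bp). HD-MB03 stood at 81.7%.

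*EPHB2*, a receptor for ephrin-B ligands in axon pathfinding and at synapses, was strong in MB002 and next to the limit in UW228. The gene spans chromosome 1 from 22710839 to 22921500 on the plus strand. The MB002 region covered exons 2 to 3, 69.5 kb from the start site (rank 966, 3.71%, signal 17940), and the UW228 region lay in intron 1, 18.9 kb from the start site (rank 1057, 5.06%, signal 20016). These regions did not overlap. HD-MB03 and D425 had their best region over exon 16, at 16.5% and 86.8%. The MB002 region had a relative input of 1.83, and after division by it *EPHB2* stood at 8.22%.

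*EPHA6*, an Eph receptor of the nervous system that spans 947.0 kb of chromosome 3 from 96814581 to 97761532, was strong in MB002 at rank 1063 (4.08%). That region covered exon 18, 946.4 kb from the start site, and its closest gene was *ARL6*. In D425 and HD-MB03 the best regions of *EPHA6* lay in intron 2, at 12.2% and 51.4%, and UW228 had none. Without input subtraction the MB002 region stood at 5.09%, and *EPHA6* stood at 9.14% in MB002 without the regions over any start site and at 12.6% with the closest gene only. It was strong in D425 too, at 4.62%, by mean signal per bp.

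The other EphA receptors were uneven between lines. *EPHA3* had 7 regions each in MB002 and UW228, 4 in D425 and 0 in HD-MB03, and the best of them stood at 9.47% in MB002 and 26% in D425, and in UW228 it covered the start site at 17.6%. *EPHA4* stood at 13.5% in MB002, 82.2% in HD-MB03 and 36.5% in UW228, and had no region in D425. *EPHA5* had regions in D425 and UW228 (63% and 29.7%) and in neither of the others. *EPHA7* and *EPHA10*, the latter a receptor without kinase activity, had a region in MB002 alone, 1 each, at 50.4% and 12.9%. *EPHA8* had 3, 2 and 3 regions in MB002, D425 and HD-MB03 with the best at 14.3%, 40.1% and 43.6%, and 0 in UW228. It was strong in MB002 by mean signal per bp and with a window of 100 kb. *EPHA1* stood at 7.6% in D425, at 99.5% in HD-MB03 and at 89.8% in UW228, with *ZYX* as the closest gene throughout.

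Among the EphB receptors, *EPHB1* separated MB002 from the rest. It had 8 regions over 84.1 kb in MB002, with the best in intron 3 at 7.5%, 1 short region at 98.4% in HD-MB03 and 0 in D425 and UW228. *EPHB4*, a receptor of *EFNB2* in blood vessels, had 7 regions in UW228 against 1 to 3 in the G3-MB lines, and its best region stood at 28.6%, 8.92%, 28.8% and 17.3% in MB002, D425, HD-MB03 and UW228. It was strong in UW228 alone by mean signal per bp. *EPHB3* stood at 27.8% in MB002, 74% in HD-MB03 and 63.8% in UW228. *EPHB6*, which has lost kinase activity, stood at 94.8% in MB002 and 11.9% in D425.

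**Figure D4:**
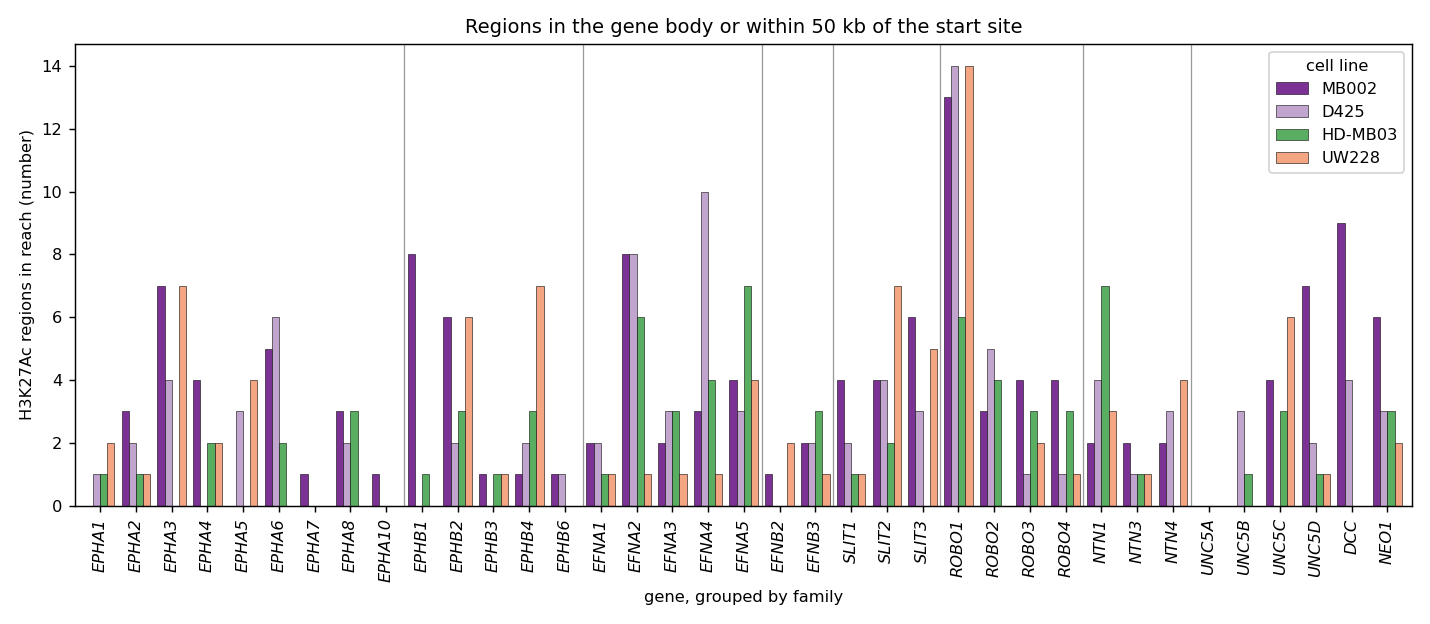
Number of H3K27Ac regions in the gene body or within 50 kb of the start site of each of the 37 genes, with 1 bar per cell line and 1 library per bar. *ROBO1* has the tallest bars of D425 and UW228, with 14 regions each, and of MB002, with 13. In HD-MB03 it has 6, and *EFNA5* and *NTN1* have 7 each. *EPHB1* and *DCC* have most of their regions in MB002.

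*ROBO1*, the SLIT receptor of commissural axons, spans 1170.8 kb of chromosome 3 from 78597239 to 79767998 and had the most regions of the 37 genes in MB002, D425 and UW228. Its best region was the same place in intron 3 in all 3 G3-MB lines, at rank 2002 (7.68%) for MB002, rank 2615 (9.94%) for D425 and rank 1557 (10.2%) for HD-MB03. These regions were 13.2 kb, 12.9 kb and 4.49 kb long and lay 742.8 kb, 742.6 kb and 748.1 kb from the start site. UW228 had a region of 0.32 kb there at rank 19099 (91.5%), and its own best region was in intron 4 at rank 5201 (24.9%). The order turned by mean signal per bp, with *ROBO1* in the top 5% and with a SE in UW228 and in no G3-MB line.

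*ROBO2* had its best rank in HD-MB03, at rank 2969 (19.4%) in intron 2, with 42.5% in MB002 and 42.9% in D425 and no region in UW228. *ROBO3*, which controls midline crossing, and *ROBO4*, the endothelial member of the family, are neighbours on chromosome 11 and shared their best region in MB002 (8.39%), D425 (38.7%) and UW228 (38.5%). In MB002 it covered the start site of *ROBO4*. In HD-MB03 they stood at 42.7% and 38.7%. Both were strong in MB002 by mean signal per bp.

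*UNC5C*, a repulsive netrin receptor needed for normal cerebellar development in mice, carried a region over its start site in MB002 and HD-MB03, at rank 1915 (7.35%) and rank 1095 (7.16%). No region of D425 was in reach of it, and in UW228 its best region lay 243.2 kb from the start site at rank 6211 (29.8%). *UNC5D* had 7 regions in MB002, the best at 10.2%, against 2, 1 and 1 regions at 36.4%, 32.6% and 93.8% in D425, HD-MB03 and UW228. *UNC5B* stood at 19.9% in D425 and 36.1% in HD-MB03 and had no region in the other lines. *UNC5A* had no region in reach in any line, as did 11.1% of all genes.

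*DCC*, the attractive netrin receptor, had 9 regions in MB002 and 4 in D425 along its 1195.7 kb on chromosome 18, and 0 in HD-MB03 and UW228. The best of them stood at 43.8% and 50%, both in intron 1 and 158.7 kb from the start site. *NEO1*, which encodes neogenin, a receptor for netrins and RGM proteins, had its best region upstream of the start site in the 3 G3-MB lines, by 3.5 kb in MB002, 7.5 kb in D425 and 7.7 kb in HD-MB03. These stood at 19.7%, 24.9% and 21.2%. In UW228 the best region of *NEO1* was in intron 7 at 58.7%. *NEO1* was in the top 5% of MB002 by mean signal per bp.

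Over the families, 33 of 37 genes had at least 1 region in reach in MB002, against 70.7% of all genes, and 29 in D425, against 72.8%. There were 27 in HD-MB03, against 58.1%, and 27 in UW228, against 61.7%. A region in all 4 lines was found for 18 genes (48.6%), against 35.8% of all genes. Split by length, these were 8 of the 19 genes of at least 100 kb, against 50%, and 10 of the 18 shorter genes, against 32.6%. Genes of at least 100 kb, which catch more regions, made up 19 of the 37. Among genes of that length the backgrounds were 85.3%, 83.9%, 67.9% and 75.9% in MB002, D425, HD-MB03 and UW228, and 18, 15, 13 and 14 of the 19 had a region. Of the 18 shorter genes, 15, 14, 14 and 13 had one, against 67.4%, 70.4%, 55.9% and 58.6%. For 18 genes the line with the lowest best rank percentage was MB002, for 8 it was D425, for 5 HD-MB03 and for 5 UW228.

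The median best rank of the genes with a region was 12.9% in MB002, where it was 26% over all genes with one. It was 24.9% against 23.5% in D425, 21.2% against 26.6% in HD-MB03 and 29.3% against 32.9% in UW228. Ligands had medians of 17.3%, 13.1%, 7.23% and 28.4%, and receptors 11.5%, 26%, 36.1% and 33.1%, in MB002, D425, HD-MB03 and UW228. A best rank gains from more regions in reach. The median number of regions of genes with one was 4 against 2 over all genes in MB002, 3 against 2 in D425 and HD-MB03, and 2 in both in UW228. The medians were not matched for this number or for gene length. The ephrin-A ligands, all 5 of which had a region in every line, were the highest ranked family in D425, with a median of 1.29% that rests on the shared SE. The other family medians of D425 lay between 11.9% and 39.2%.

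Other measures, which the choice of genes did not use, set the regions of these genes beside all regions of their line. Their median length was 1658 bp in MB002 against 1585 bp over all regions, 1313.5 against 1287 bp in D425, 1529.5 against 1369 bp in HD-MB03 and 1926.5 against 2264 bp in UW228. Of the MB002 regions, 41.7% overlapped a region of D425, 34.6% one of HD-MB03 and 19.7% one of UW228, where all MB002 regions gave 45%, 35.2% and 20.3%. Of the D425 regions, 53.1% overlapped MB002, 36.5% HD-MB03 and 22.9% UW228, against 45.4%, 29.9% and 24.4%. For HD-MB03 the shares were 64.3% with MB002, 51.4% with D425 and 25.7% with UW228, against 61.2%, 51.2% and 26.2%. Of the 86 UW228 regions, 17 (19.8%) overlapped D425, against 30% of all UW228 regions, while 27.9% overlapped MB002 and 16.3% HD-MB03, against 24.7% and 18.7%. These differences are given without a test.

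Introns held between 47.4% (HD-MB03) and 61.7% (MB002) of the gene and region pairs. A start site of a protein-coding gene lay under 8.66% of these regions of MB002, 5.21% of those of D425, 11.4% for HD-MB03 and 4.65% for UW228, against 5.07%, 4.46%, 6.74% and 4.7% of all regions.

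Motif matches per kb in these regions were compared with those of all regions in their line, without a test. TGACTCA, the AP-1 motif, occurred 0.176 times per kb in MB002 and D425, 0.161 in HD-MB03 and 0.29 in UW228, where all regions gave 0.178, 0.187, 0.181 and 0.253 in the same order of lines (MB002, D425, HD-MB03, UW228). TAATCC occurred 0.679, 0.801, 0.768 and 0.7 times per kb, below the 0.878, 0.907, 0.776 and 0.811 of all regions in each line. CACGTG occurred 0.139, 0.155, 0.175 and 0.122 times per kb, above 0.116, 0.125, 0.165 and 0.105, and the share of regions that held it was 34.6%, 29.2%, 45.7% and 27.9%, against 31.2%, 29.7%, 32.2% and 32.7% of all regions, so that it was lower in D425 and UW228. CATTCC occurred 0.621, 0.585, 0.6 and 0.574 times per kb, against 0.608, 0.606, 0.591 and 0.627. In the *EFNB2* SE of UW228, TGACTCA matched 6 times (0.352 per kb) and CATTCC 3 times (0.176 per kb). In the *EFNA5* start-site SE of HD-MB03, TAATCC matched 15 times (0.446 per kb) and TGACTCA 4 times (0.119 per kb).

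Other genes of axon guidance were read from a list of 42, which holds adaptors, exchange factors and kinases that act downstream of these receptors, and further ligands and surface proteins such as *RGMA*, *DRAXIN* and *DSCAM*. Of these, 7 each in MB002 and UW228, 6 in D425 and 5 in HD-MB03 had a region in the top 5%. These made 16.7% in MB002, where 10.8% of all genes had one, 14.3% in D425 against 12.3%, 11.9% in HD-MB03 against 8.42% and 16.7% in UW228 against 6.55%. A SE was in reach of 3 of the 42 in MB002, 2 each in D425 and HD-MB03, and 4 in UW228, or 7.14%, 4.76%, 4.76% and 9.52%, against 3.33%, 4.31%, 3.09% and 4.95% of all genes. Those with a SE in at least 1 line were the following. *MYO10*, a myosin that carries netrin receptors into filopodia, had a SE in MB002 (rank 80), HD-MB03 (rank 264) and UW228 (rank 385). *ENAH*, an actin regulator downstream of ROBO and netrin receptors, had one in D425 (rank 4) and UW228 (rank 317), and *VAV2*, an exchange factor recruited by Eph receptors, in D425 (rank 56) and HD-MB03 (rank 217). *FLRT1* (rank 77) and *SRGAP2* (rank 308) had one in MB002, with *MACROD1* and *IKBKE* as the closest genes. *TRIO*, an exchange factor of the DCC pathway, had one in UW228 (rank 4), and so did its relative *KALRN* (rank 722).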

How the data were processed

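H3K27Ac and input libraries of 4 cell lines (8 samples) were analysed, with 1 library of each kind per line. The authors aligned reads to GRCh38 with Bowtie2 2.3.0, handled them with SAMtools 1.9, called peaks of each library with MACS2 2.2.6, and used ROSE (stitching distance of 12 kb in the header) to join and rank the peaks. The deposited signal of the H3K27Ac and input columns is read density per bp, normalised to the mapped reads and multiplied by the region length. The deposited score of each region is its rank, and further deposited columns hold the SE call and the number of peaks. The methods exclude promoters, but some deposited regions cover a start site. Read depth is not given by these values, so no counting error could be given.

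Input was subtracted from the H3K27Ac signal, with a floor at 0, and the resulting order was that of the deposited ranks in all 4 lines. Relative input is the input per bp over the median of the line. Genes were the 19962 protein-coding genes of GENCODE 44 on chromosomes 1 to 22 and X. Python 3.11.15, numpy 2.4.6, pandas 2.3.3 and matplotlib 3.10.9 were used, and the assignment was tested on simulated data. The members and all lists were chosen with earlier results of these data known. Members with a region in the top 5% of at least 1 line were described in every line and the others by their ranks, and other pathway genes were named only if they had a SE. A single gene was not analysed here.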

Additional observations from a re-analysis of the deposited data

How the results depend on the processing

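The 4 counts, namely genes with a SE and strong genes (in the top 5%) in each line, strong genes of UW228 alone, and strong genes of at least 2 G3-MB lines but not UW228, were recomputed under each alternative. Of 100 recomputed counts, 71 stayed within 1.5 times the main count and 29 moved. All counts stayed within it without input subtraction, with a start-site window of 25 kb, with gene bodies alone and with the tangent cutoff recomputed. For the others the cause was not tested, beyond what each alternative leaves out.

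Shares of all 19962 genes under the same alternative stand in parentheses after each count of the 37, and SEs were called again wherever the signal was changed. With division by relative input density, 2 genes (*EFNA2* and *EFNB2*) were strong in UW228 alone (4.13%). By mean signal per bp, a SE was in reach of 4 genes in UW228 (9.32%), 1 in D425 (2.82%) and 0 in HD-MB03 (1.49%), 4 genes were strong in D425 (10.6%), and 2 were strong in UW228 alone (3.68%), namely *EPHB4* and *ROBO1* in place of *EFNB2*, while those strong in at least 2 G3-MB lines but not UW228 became *EPHA6*, *EFNA2* and *NTN3*. With a window of 100 kb, HD-MB03 had 5 genes with a SE (4.67%) and the same 5 strong (12.9%), with *EFNA1* and *EFNA3* added. Without regions over any start site, genes with a SE numbered 1 in MB002 (1.05%), 1 in UW228 (2.75%), and 0 in D425 (1.41%) and HD-MB03 (0.646%), strong genes 3 in MB002 (7.11%) and 2 in D425 (7.95%), and strong genes of the G3-MB lines but not UW228 numbered 1 (*EFNA5*, 3.37%). With each region given to its closest gene only, genes with a SE numbered 1 in MB002 (1.45%), 1 in HD-MB03 (1.28%) and 2 in D425 (1.83%), strong genes 3 for MB002 (4.81%), 3 for D425 (5.13%) and 1 for HD-MB03 (3.27%), and *EFNA5* was again the 1 gene of the G3-MB lines (2.22%). Among the 500 top-ranked regions, UW228 had 1 gene (3.29%). In the top 2%, MB002 had 3 genes (4.58%), UW228 1 (2.77%) and UW228 alone 0 (2.06%). In the top 10%, MB002 had 13 genes (18.9%), HD-MB03 8 (15%), and 6 genes were in the G3-MB lines but not in UW228 (11.2%).

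*EFNA5* stayed in the top 5% of all 3 G3-MB lines under these alternatives, except by mean signal per bp, and in the top 2% it was held in MB002 and HD-MB03 and not in D425. No paired analysis was possible because each line had 1 library of each kind and no replicate numbers. With 1 library per line, a difference between libraries cannot be told from one between lines.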
